A study of Mus musculus with 7 samples.

Results

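Renal phosphate handling was followed through 10 genes: the sodium phosphate carriers Slc34a1, Slc34a3, Slc20a1, Slc20a2, Slc17a1 and Slc17a3, the scaffold genes Pdzk1 and Slc9a3r1, and the klotho and parathyroid hormone receptor genes Kl and Pth1r. They were chosen by name among the 54532 genes of the deposited tables, and all 10 were among the 15351 genes with enough counts to test. The kidneys sequenced, as bulk RNA, were those of C57BL/6J mice 6 to 8 weeks old, male per the series' design text. All animals had a tail vein injection of cisplatin (20 mg/kg), a platinum drug toxic to tubule cells. For 3 libraries DXZ (40 mg/kg, tail vein) was added 30 min ahead of cisplatin and again each 24 h over 3 days, and 4 libraries carried the label saline. The labels do not spell DXZ out, and no library without cisplatin was analysed here. Nothing in the labels says that the libraries came from separate animals, so p-values measure the spread between these samples, which may be technical. Total counts ran from 16058157 to 18133736 per library.

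Most filtered phosphate is taken back by the proximal tubule, where sodium-coupled carriers in the brush border bring it into the cell. The carrier NaPi-IIa, encoded by Slc34a1, does most of this work in mice. PDZ-domain scaffolds hold it at the membrane, and parathyroid hormone and the bone hormone FGF23, which needs klotho as its co-receptor, bring about its removal and so raise phosphate excretion.

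Kidneys given DXZ had lower transcript levels of the proximal tubule carriers Slc34a1 and Slc17a1 and of Kl, and a higher level of the broadly expressed carrier gene Slc20a2. By edgeR's quasi-likelihood test, with Benjamini-Hochberg adjustment over all genes and an adjusted p below 0.05, 3 of the 10 genes fell and 1 rose. Over all genes tested 5.56% were called, 2.31% lower and 3.24% higher in DXZ. The fold change had a negative sign for 8 of the 10 genes, with a median log2 fold change of -1.09, against 0.01 over all genes tested. All 10 had an unadjusted edgeR p below 0.05, as had 25.4% of all genes tested, and the DXZ and saline libraries did not overlap for 8 of the 10, as for 24.1% of all genes. The 10 genes were chosen with earlier results of these data known, so these comparisons with all genes are no independent test.

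The sequence around the start of transcription is shown for the 3 genes that fell and for Slc20a1, a carrier gene whose fold change had the opposite sign. RefSeq holds promoter entries (GRCm38.p6, 250 bases before to 50 after a start) for 9 of the 10 genes. All 4 are on the plus strand, written 5′ to 3′, and capitals mark the HNF1 core motif GTTAAT or its reverse complement ATTAAC. HNF1 factors are transcriptional activators of proximal tubule genes.
Slc34a1, chr13:55399398-55399697: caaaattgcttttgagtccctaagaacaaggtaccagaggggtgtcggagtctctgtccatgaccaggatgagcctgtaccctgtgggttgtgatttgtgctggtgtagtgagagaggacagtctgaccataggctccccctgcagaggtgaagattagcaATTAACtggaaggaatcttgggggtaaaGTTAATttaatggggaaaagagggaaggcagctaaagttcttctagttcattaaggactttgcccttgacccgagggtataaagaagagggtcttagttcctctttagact
Slc17a1, chr13:23868768-23869067: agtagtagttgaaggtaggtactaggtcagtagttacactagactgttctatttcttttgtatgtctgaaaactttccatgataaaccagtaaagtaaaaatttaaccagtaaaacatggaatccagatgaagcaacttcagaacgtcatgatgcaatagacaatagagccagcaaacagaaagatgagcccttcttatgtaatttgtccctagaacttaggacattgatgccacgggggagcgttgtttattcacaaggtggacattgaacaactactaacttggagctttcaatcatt
Kl, chr5:150952357-150952656: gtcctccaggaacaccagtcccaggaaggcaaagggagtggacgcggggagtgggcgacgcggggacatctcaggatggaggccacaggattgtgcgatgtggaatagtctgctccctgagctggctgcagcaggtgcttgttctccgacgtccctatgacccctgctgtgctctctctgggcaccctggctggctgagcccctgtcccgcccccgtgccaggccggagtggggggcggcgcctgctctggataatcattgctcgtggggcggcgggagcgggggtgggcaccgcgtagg
Slc20a1, chr2:129198523-129198822: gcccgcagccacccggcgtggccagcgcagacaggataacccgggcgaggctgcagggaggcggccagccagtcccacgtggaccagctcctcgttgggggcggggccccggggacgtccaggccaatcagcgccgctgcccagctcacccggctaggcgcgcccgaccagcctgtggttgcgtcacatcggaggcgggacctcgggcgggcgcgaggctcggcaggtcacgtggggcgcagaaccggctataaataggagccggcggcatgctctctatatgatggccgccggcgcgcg

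The Slc34a1 promoter held GTTAAT 61 bases and ATTAAC 89 bases before the start. Of 32851 mouse promoters of this length, chromosome 18 left out, 7.10% held GTTAAT on either strand. The full HNF1 motif was in 3 of the 32851 and in no entry of these 9 genes, Slc34a1 included. The HNF4 motif CAAAGTCCA, also searched on both strands, was found once, 14 bases after a Pdzk1 start, and in 0.475% of the 32851 promoters. The entries of Slc34a3, Slc17a1, Slc17a3, Slc9a3r1, Kl, Pth1r and Slc20a1 held none of these letters. GC content was 46.7% for Slc34a1, 67.3% for Kl and, in the entries shown, 37.7% for Slc17a1 and 73.0% for Slc20a1. The median over the 32851 promoters was 52.7%. Slc17a1 and Slc20a1 each have another entry, at a start further along the gene, with a GC content of 45.7% (Slc17a1) and 52.0% (Slc20a1). Such matches describe letters only. The entries shown for Slc34a1 and Slc17a1 lie wholly inside the gene models of the deposited tables, which begin at 55398187 (Slc34a1) and 23867750 (Slc17a1).

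Slc34a1 (ENSMUSG00000021490, GRCm38 chromosome 13, 55398187 to 55415592) was at 512, 119 and 382 CPM in DXZ 1, 2 and 3, against 4332, 1881, 1352 and 2391 CPM in saline 1, 2, 3 and 4. CPM here take the TMM-scaled library size as the total. Every DXZ library lay below every saline library. The libraries of each group spread widely, 4.29-fold in DXZ and 3.21-fold in saline. The log2 fold change was -2.88 (SE 0.59, edgeR adjusted p = 0.0373), which is 7.37-fold lower in DXZ. Per length, by the deposited FPKM, it was the 809th most abundant of 54532 genes in DXZ and the 66th in saline. Leaving out 1 library ended the call for DXZ 2 (edgeR adjusted p = 0.0793), DXZ 3 (0.0921), saline 1 (0.0535), saline 2 (0.0631) and saline 4 (0.0958), and kept it for DXZ 1 (0.0317) and saline 3 (0.0468). Over 20 alternatives the log2 fold change lay between -3.31 and -2.48 and the adjusted p between 7.82e-05 and 0.168.

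Slc34a3 (ENSMUSG00000006469, chromosome 2, 25228898 to 25234364) encodes NaPi-IIc, the other sodium phosphate carrier of this family in the brush border. It was at 5.07, 1.39 and 1.36 CPM in DXZ 1, 2 and 3, against 66.7, 32.9, 6.96 and 16.6 CPM in saline 1 to 4. The groups did not overlap, but saline 1 and saline 3 differed 9.58-fold, the widest spread within saline among the 10 genes. The log2 fold change was -3.55 (SE 0.86, edgeR adjusted p = 0.0531) and did not pass. It rested on 136 counts in all in DXZ and 2115 in saline. Without DXZ 1 it was -4.48 and passed (edgeR adjusted p = 0.0392), as it did at -3.88 without saline 3 (0.0436). Within a library, the log2 ratio of Slc34a1 to Slc34a3 was 6.98 ± 0.91 in DXZ (SD, n = 3) and 6.65 ± 0.85 in saline (SD, n = 4). The difference of 0.34 was smaller than the spread between replicates (exact permutation test, two-sided, p = 0.686), was -0.18 without DXZ 3, and does not show that both genes moved alike.

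The SLC17 carriers were first named for sodium phosphate transport and also carry organic anions such as urate. Slc17a1 (ENSMUSG00000021335, chromosome 13, 23867750 to 23895730) was at 251, 312 and 335 CPM in DXZ 1, 2 and 3, against 753, 582, 571 and 709 CPM in saline 1 to 4. All DXZ libraries lay below all saline libraries, and the highest and lowest values differed 1.34-fold in DXZ and 1.32-fold in saline. The means were 299 ± 43.6 CPM in DXZ (SD, n = 3) and 654 ± 91.1 CPM in saline (SD, n = 4), and the log2 fold change was -1.13 (SE 0.16, edgeR adjusted p = 0.0204). It was no longer called without DXZ 2 (edgeR adjusted p = 0.0703) or saline 4 (0.0747) and stayed past the threshold without any other single library. Over the alternatives its adjusted p ran from 5.17e-09 to 0.150.

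Slc17a3, the neighbouring paralog (ENSMUSG00000036083, chromosome 13, 23839434 to 23860716), was at 182, 89.8 and 119.5 CPM in DXZ 1, 2 and 3, against 581, 327, 139.7 and 229 CPM in saline 1 to 4. DXZ 1 was above saline 3, so the groups overlapped. The log2 fold change of -1.29 (SE 0.47) had an edgeR adjusted p of 0.135 and did not pass, and it was -0.84 without saline 1.

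The SLC20 carriers PiT-1 and PiT-2 serve phosphate uptake in most cell types, and PiT-2 is also found in the proximal tubule brush border. Slc20a2 (ENSMUSG00000037656, chromosome 8, 22476788 to 22569612) was at 94.4, 107 and 123 CPM in DXZ 1, 2 and 3, against 69.9, 71.7, 75.3 and 74.4 CPM in saline 1 to 4. All DXZ libraries were above the saline libraries, whose highest and lowest values differed 1.08-fold. The means of 108 ± 14.1 CPM in DXZ (SD, n = 3) and 72.8 ± 2.50 CPM in saline (SD, n = 4) gave a log2 fold change of 0.57 (SE 0.10, adjusted p = 0.0301, edgeR). That call held without DXZ 1 (edgeR adjusted p = 0.0185) and was lost without DXZ 2 (0.0910), DXZ 3 (0.0820), saline 1 (0.0662), saline 2 (0.0668), saline 3 (0.0554) or saline 4 (0.0958). Over the alternatives the adjusted p ran from 0.000372 to 1. The upper end came from edgeR's test against a fold of 1.5, which is above the 1.48-fold difference of Slc20a2, so that it could not pass there. The gene Gm17491 lies inside Slc20a2 on the same strand and had 556 counts in DXZ and 542 in saline, against 5514 and 4923 for Slc20a2.

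Slc20a1 (ENSMUSG00000027397, chromosome 2, 129198764 to 129211616) was at 83.5, 91.3 and 89.6 CPM in DXZ 1, 2 and 3, against 69.0, 74.2, 54.1 and 66.6 CPM in saline 1 to 4. Its groups did not overlap either. The log2 fold change of 0.42 (SE 0.12) did not pass (edgeR adjusted p = 0.0732).

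**Figure D1:**
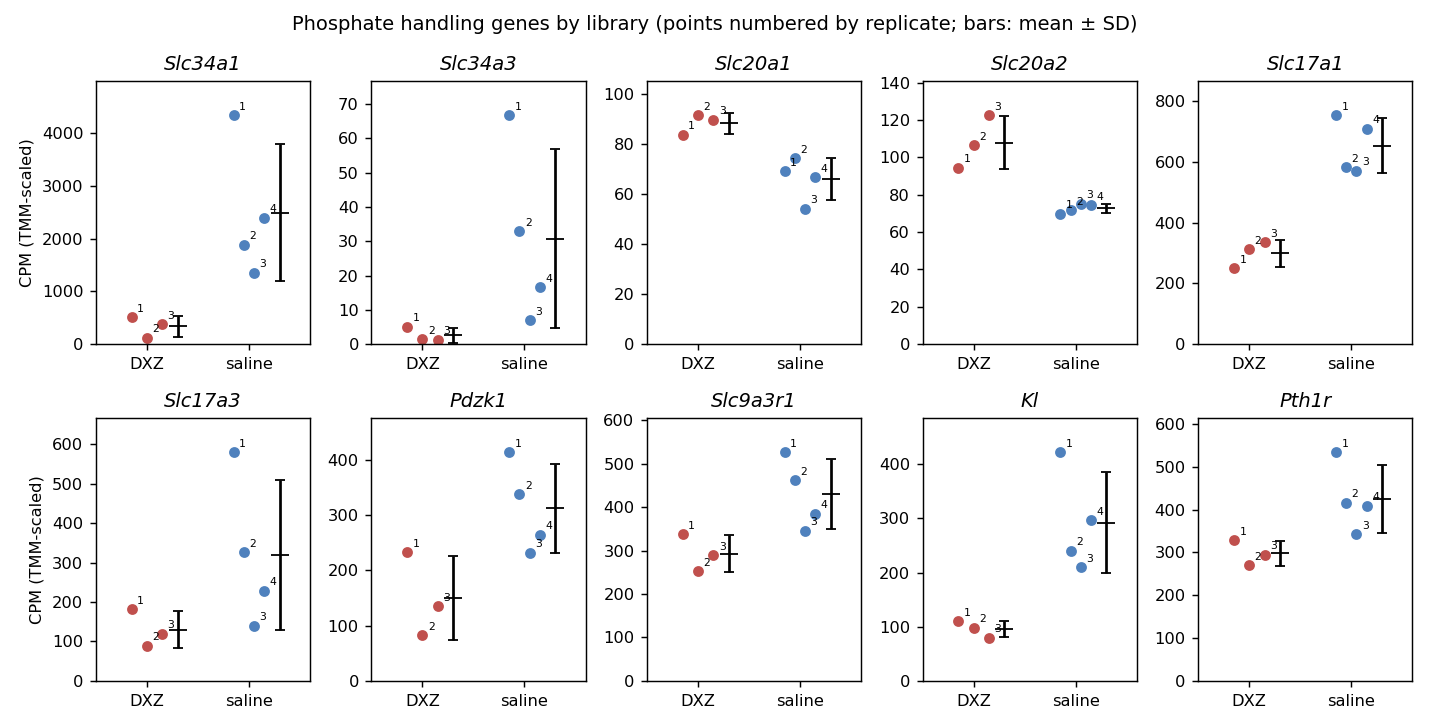
CPM of each of the 10 genes (vertical axes from 0, a scale per gene) in the 3 DXZ and 4 saline libraries, numbered by replicate, with bars for mean and SD. The DXZ libraries lie below the saline libraries for Slc34a1, Slc34a3, Slc17a1, Slc9a3r1, Kl and Pth1r and above them for Slc20a1 and Slc20a2.

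Compared per length, the 6 carriers together made 268, 205 and 276 FPKM in DXZ 1, 2 and 3, against 1374, 729, 572 and 876 FPKM in saline 1 to 4. Slc34a1 made up 39.9%, 12.5% and 29.5% of that sum in DXZ 1, 2 and 3, against 67.1%, 54.7%, 50.3% and 58.4% in saline 1 to 4. It was the most abundant of the 6 in every saline library and in DXZ 1, while Slc17a1 was the most abundant in DXZ 2 and DXZ 3. Slc17a1 held 51.3 ± 12.9% of the sum in DXZ (SD, n = 3) and 33.1 ± 7.75% in saline (SD, n = 4). The SLC20 genes, minor in saline, held 6.42 ± 1.38% (Slc20a1) and 7.01 ± 1.43% (Slc20a2) in DXZ, against 1.44 ± 0.41% and 1.46 ± 0.53% in saline. Slc34a1 averaged 71.3 ± 41.6 FPKM in DXZ and 530.0 ± 277 FPKM in saline (SD, n = 3 and 4). Slc17a1 averaged 125 ± 19.5 FPKM in DXZ and 274 ± 38.8 FPKM in saline, and Slc17a3 19.0 ± 6.60 FPKM in DXZ and 46.8 ± 27.9 FPKM in saline. Slc20a1 and Slc20a2 were close to each other, at 15.7 ± 0.93 and 17.2 ± 2.38 FPKM in DXZ and 11.8 ± 1.51 and 11.7 ± 0.42 FPKM in saline. Slc34a3 was the least abundant carrier in DXZ, at 1.09 ± 0.88 FPKM, against 13.0 ± 11.1 FPKM in saline, where its spread took in the SLC20 levels. The spreads of Slc20a1 and Slc20a2 overlapped in both groups.

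**Figure D2:**
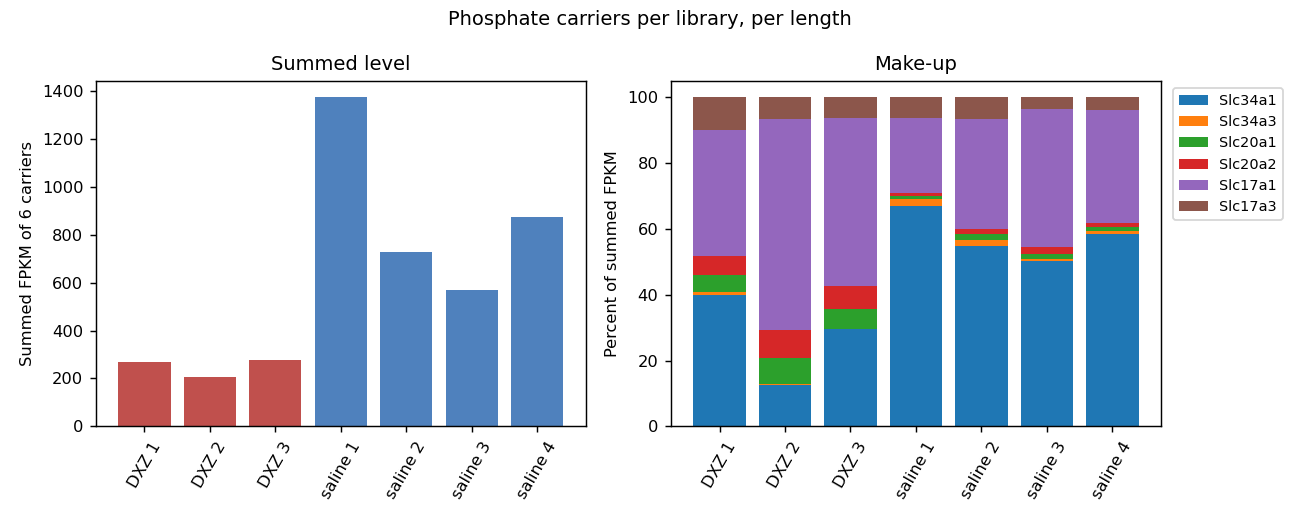
Summed FPKM of the 6 phosphate carriers per library (left, FPKM) and the percent of that sum held by each carrier (right), for DXZ 1 to 3 and saline 1 to 4. Slc34a1 held 12.5% to 39.9% in the DXZ libraries and 50.3% to 67.1% in the saline libraries.

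Neither scaffold gene passed. Pdzk1 (ENSMUSG00000038298, chromosome 3, 96829284 to 96870926) encodes a protein with several PDZ domains that binds the tail of NaPi-IIa. It was at 232, 82.9 and 135 CPM in DXZ 1, 2 and 3, against 413, 337, 232 and 264 CPM in saline 1 to 4, so that DXZ 1 and saline 3 had nearly the same level. The log2 fold change was -1.06 (SE 0.35, edgeR adjusted p = 0.108), and it was -1.52 without DXZ 1 and passed (edgeR adjusted p = 0.0294). Pdzk1 overlaps the opposite-strand gene Gpr89 (1664 counts in DXZ and 2056 in saline, against 7774 and 21178 for Pdzk1), and whether strand was used in counting is not given in the sources used here.

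Slc9a3r1 (ENSMUSG00000020733, chromosome 11, 115163341 to 115181181) encodes NHERF1, which anchors NaPi-IIa and the parathyroid hormone receptor at the membrane. It was at 338, 253 and 289 CPM in DXZ 1, 2 and 3, against 527, 462, 345 and 384 CPM in saline 1 to 4. The groups did not overlap, though DXZ 1 and saline 3 were close, and the log2 fold change of -0.55 (SE 0.18) did not pass (edgeR adjusted p = 0.1001).

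Of the hormone receptor genes, Kl fell and Pth1r did not pass. Kl (ENSMUSG00000058488, chromosome 5, 150952607 to 150993817), made mostly in the distal convoluted tubule and also in the proximal tubule, was at 110.0, 98.1 and 80.1 CPM in DXZ 1, 2 and 3, against 423, 241, 209.8 and 296 CPM in saline 1 to 4. The lowest saline library was well above the highest DXZ library. Kl averaged 96.1 ± 15.1 CPM in DXZ (SD, n = 3) and 292 ± 93.9 CPM in saline (SD, n = 4), with a log2 fold change of -1.61 (SE 0.25, adjusted p = 0.0215, edgeR). Without DXZ 2, DXZ 3 or saline 4 the edgeR adjusted p was 0.0749, 0.0632 and 0.0747, and the call held without any other single library. Its range over the alternatives was 2.56e-08 to 0.141. Pth1r (ENSMUSG00000032492, chromosome 9, 110722085 to 110747145), the receptor through which parathyroid hormone acts on tubule cells, was at 329, 271 and 294 CPM in DXZ 1, 2 and 3, against 534, 416, 342 and 409 CPM in saline 1 to 4. No DXZ library reached the saline range, and the log2 fold change was -0.51 (SE 0.16, edgeR adjusted p = 0.0997).

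The counts of calls among the 10 genes changed with single libraries, as did those over the whole table. Without DXZ 1, 5 genes fell and 1 rose, Pdzk1 and Slc34a3 being added, and 1574 of all genes were called. Without saline 3, 4 fell and 0 rose (426 of all genes called). Without saline 1 or without saline 2, 2 fell and 0 rose (374 and 296 of all genes called), and without DXZ 3, 1 fell and 0 rose (141 of all genes called). Without DXZ 2, edgeR called 0 of the 10 and 1 gene in the whole table, while 9 of the 10 and 3191 of 15705 genes had an unadjusted p below 0.05. Without saline 4 it called 0 of the 10 and 4 genes in the whole table, while all 10 and 3074 of 15205 genes had an unadjusted p below 0.05. A count of 0 among the 10 in these settings is therefore no result about them. With all libraries DESeq2 called all 10, 8 lower and 2 higher, where it called 2116 of all genes against edgeR's 853. No direction changed under any alternative.

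**Figure D3:**
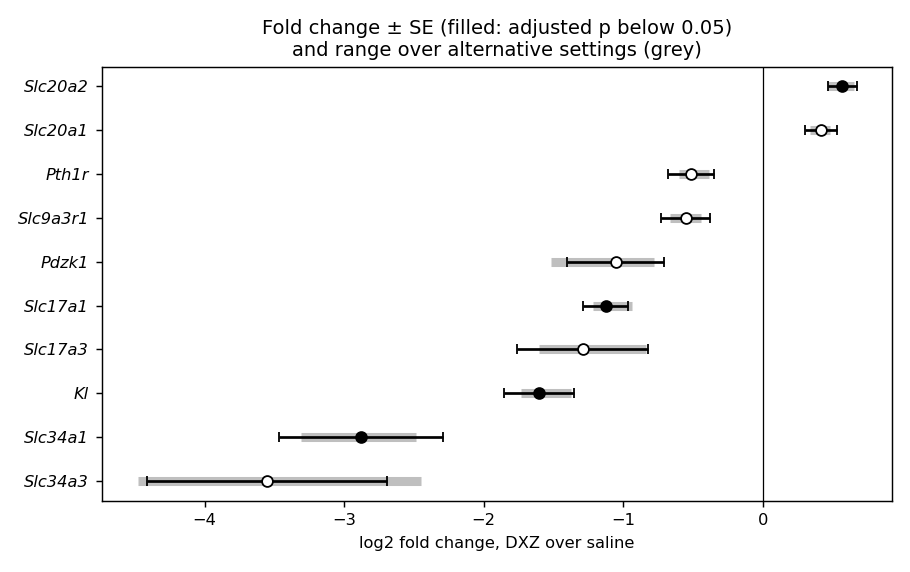
Log2 fold change of DXZ over saline for each of the 10 genes, with SE bars, filled where the edgeR adjusted p was below 0.05, and in grey the range over 20 alternative settings. Slc34a1, Slc17a1, Kl and Slc20a2 are filled, and no grey range crosses 0.

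The 8 genes with negative fold changes shared their highest and lowest saline libraries. Saline 1 was the highest and saline 3 the lowest saline library for 8 of the 8. In DXZ, DXZ 1 was the highest for 7 of the 8, Slc17a1 being the exception, and DXZ 2 was the lowest for 5. A score from 16 proximal tubule markers that are not among the 10 genes, their mean log2 CPM less its mean over the 7 libraries, ran in a similar order, at -0.67, -1.24 and -0.79 in DXZ 1, 2 and 3, and 1.52, 0.53, 0.12 and 0.53 in saline 1 to 4. Of these markers 8 of 16 fell and 0 rose, and their summed level was 4772 to 5852 CPM in DXZ and 8421 to 18701 CPM in saline. In bulk tissue, fewer proximal tubule cells and less RNA of these genes per cell cannot be told apart.

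Set against these markers within each library, the 10 genes differed among themselves. Slc34a1 was above the marker mean by 1.44, -0.08 and 1.148 log2 units in DXZ 1, 2 and 3, against 2.34, 2.12, 2.06 and 2.47 in saline 1 to 4. All DXZ values were below all saline values, and the difference of the means was -1.41 (exact permutation test, two-sided, p = 0.0571, the smallest that 3 against 4 libraries allow). It was -0.95 without DXZ 2. The markers' own log2 fold changes ran from -3.56 to -0.78, a range that takes in the -2.88 of Slc34a1. For Kl these markers are not those of its main segment, the distal convoluted tubule, and a ratio to distal markers was not taken. Kl was at -0.75 ± 0.37 in DXZ (SD, n = 3) and -0.76 ± 0.21 in saline (SD, n = 4), and the groups overlapped. Slc17a1 (0.89 ± 0.45 in DXZ and 0.44 ± 0.45 in saline), Slc17a3 (-0.36 ± 0.27 in DXZ and -0.77 ± 0.37 in saline) and Pdzk1 (-0.22 ± 0.47 in DXZ and -0.65 ± 0.30 in saline) overlapped too, as did Slc34a3 (-6.15 ± 0.87 in DXZ and -4.40 ± 0.88 in saline). Slc9a3r1 and Pth1r, which were lower in CPM, were higher relative to the markers in every DXZ library, at 0.86 ± 0.13 and 0.89 ± 0.18 in DXZ, against -0.17 ± 0.37 and -0.19 ± 0.34 in saline. Relative to the markers the SLC20 genes stood 2.002 (Slc20a1) and 2.13 (Slc20a2) log2 units higher in DXZ than in saline, without overlap (exact permutation test, two-sided, p = 0.0571 for each). Their own log2 fold changes were 0.42 and 0.57. The marker mean was itself lower in every DXZ library than in every saline library, which raises each gene's value relative to it in DXZ.

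**Figure D4:**
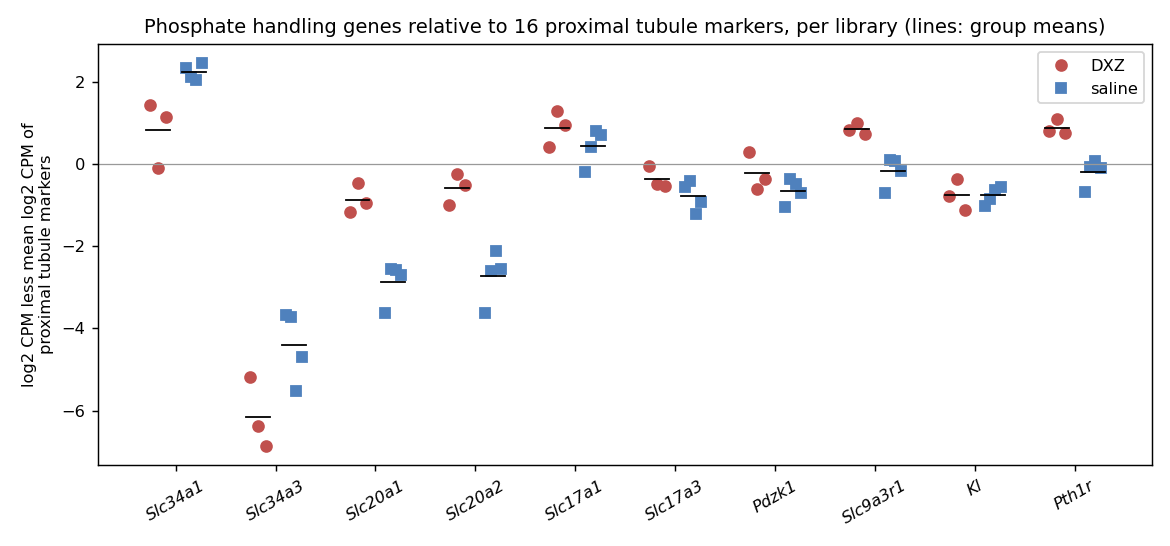
Log2 CPM of each gene less the mean log2 CPM of 16 proximal tubule markers, in each DXZ (circles) and saline (squares) library, with lines for group means. Slc34a1 is lower in DXZ (mean 0.84, against 2.25 in saline), Kl has close means (-0.75 in DXZ and -0.76 in saline) and Slc20a1, Slc20a2, Slc9a3r1 and Pth1r are higher.

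The other marker lists also differed between groups or libraries. Distal convoluted tubule markers, whose segment also makes Kl, fell for 2 of 4 genes, Slc12a3 and Pvalb. The 4 markers summed to 164 to 314 CPM in DXZ and 283 to 585 CPM in saline. Slc12a3, the thiazide-sensitive cotransporter, had a log2 fold change of -1.59 (adjusted p = 0.0192, edgeR). Pvalb rested on 3 counts in all in DXZ and 91 in saline. Tubule injury markers rose for 3 of 8, the keratin genes Krt8, Krt18 and Krt20. The list summed to 22063 to 36492 CPM in DXZ and 8292 to 23778 CPM in saline. Saline 1, the library highest in the proximal genes, had the lowest sum, though not the lowest level of every gene listed. Most of that sum was Spp1, which did not pass (edgeR adjusted p = 0.526). Havcr1, encoding the injury marker KIM-1, was at 1002, 1402 and 617 CPM in DXZ 1 to 3 and 69.4, 759.8, 325 and 108 CPM in saline 1 to 4, with overlapping groups, and did not pass (edgeR adjusted p = 0.207). Endothelial (0 of 5 changed), macrophage (1 of 5 rose, Cd68) and fibroblast markers (0 of 4) summed to 58.0 to 263, 58.0 to 210.8 and 38.3 to 531 CPM in DXZ, the highest each time in DXZ 1, and to 163 to 264, 67.3 to 143 and 91.2 to 365 CPM in saline. Thick ascending limb (0 of 4 changed), podocyte (0 of 4) and collecting duct markers (1 of 7 rose, Fxyd4) summed to 1168 to 3271, 252 to 352 and 932 to 2557 CPM in DXZ, and to 2196 to 3858, 310.0 to 457 and 535 to 1425 CPM in saline. Neutrophil and lymphocyte markers (0 of 2 tested changed) summed to at most 12.2 CPM in DXZ and 6.64 CPM in saline, and non-kidney markers (0 of 2 tested) to at most 11.7 and 30.6 CPM, with Cyp11b1 and Ins2 at 0 counts in every library. Their part in the results for the 10 genes was not tested.

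Of 39 other genes of phosphate control, 35 could be tested, and 4 fell and 1 rose, which is 14.3% of those tested against 5.56% of all genes, with a median log2 fold change of -0.03. This list too was chosen with earlier results of these data known. Among 7 other carriers and exporters 1 fell: Xpr1, the cellular phosphate exporter, at 68.0, 71.8 and 70.6 CPM in DXZ 1, 2 and 3, against 97.7, 85.9, 88.0 and 88.3 CPM in saline 1 to 4 (log2 fold change -0.36, SE 0.08, edgeR adjusted p = 0.0486). Slc34a2, the intestinal and lung member of the NaPi-II family, was at 47.5, 48.7 and 44.3 CPM in DXZ and 14.0, 28.4, 45.2 and 39.1 CPM in saline 1 to 4. Its log2 fold change of 0.57 did not pass (edgeR adjusted p = 0.328).

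Among 7 other apical scaffold and exchanger genes 1 fell and 1 rose. Slc9a3, the sodium proton exchanger NHE3, was at 73.6, 57.3 and 72.6 CPM in DXZ 1, 2 and 3, against 111, 89.3, 113 and 106 CPM in saline 1 to 4 (log2 fold change -0.63, SE 0.13, edgeR adjusted p = 0.0379). Ezr encodes ezrin, which ties the NHERF scaffold to actin, and was at 665, 747 and 737 CPM in DXZ, against 492, 552, 514 and 519.9 CPM in saline (log2 fold change 0.46, SE 0.11, edgeR adjusted p = 0.0486). Both groups of libraries were separate for each of these genes.

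Of 6 tested FGF23 receptor and processing genes 1 fell, Fgfr4, a klotho-dependent FGF23 receptor, at 18.1, 15.1 and 16.6 CPM in DXZ 1, 2 and 3, against 36.1, 32.8, 24.1 and 32.0 CPM in saline 1 to 4 (log2 fold change -0.91, SE 0.15, edgeR adjusted p = 0.0238). Fgfr1, the main partner of klotho, was at 61.1 ± 0.88 CPM in DXZ (SD, n = 3) and 69.8 ± 1.47 CPM in saline (SD, n = 4), with a log2 fold change of -0.19 that did not pass (adjusted p = 0.148, edgeR). Fgf23 itself, a hormone of bone, had 1 count in all, in saline 2.

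Of 12 tested genes of parathyroid hormone receptor signalling 1 fell, Plcb1, a phospholipase C, at 10.03, 7.86 and 7.09 CPM in DXZ 1, 2 and 3, against 27.7, 17.96, 15.7 and 17.2 CPM in saline 1 to 4 (log2 fold change -1.24, SE 0.23, edgeR adjusted p = 0.0311). It was -0.65 by limma on log2(FPKM + 1), a scale that shrinks low genes. The calls among the 35 moved with those over the whole table. Without DXZ 2, DXZ 3 or saline 4, edgeR called 0 of the 35, where it called 1, 141 and 4 of all genes, and all 5 genes named here as changed had an unadjusted p below 0.05. It called 7 of the 35 without DXZ 1, where it called 1574 of all genes, and 2, 1 and 2 without saline 1, 2 or 3. Xpr1 lost its call with the scaling changed to median-of-ratios size factors (edgeR adjusted p = 0.0519), and so did Ezr (0.0545). Of the 20 alternatives Xpr1 passed under 2, Ezr under 8, Slc9a3 under 11, Fgfr4 under 13 and Plcb1 under 14. The adjusted p ran from 0.00435 to 1 for Xpr1 and from 9.92e-05 to 1 for Ezr. The upper end came from edgeR's test against a fold of 1.5, which is above their differences of 1.28-fold (Xpr1) and 1.38-fold (Ezr).

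The vitamin D genes, of which parathyroid hormone and FGF23 set Cyp27b1 in opposite directions, did not pass, with 0 of 3 changed by edgeR or DESeq2 and none below an unadjusted edgeR p of 0.05. Cyp27b1, which makes the active hormone, was at 19.7, 25.0 and 30.1 CPM in DXZ 1, 2 and 3, against 2.87, 34.7, 152 and 122 CPM in saline 1 to 4. The saline libraries spread 53.2-fold around the DXZ range, with saline 1, the highest library for Slc34a1 and Kl, the lowest (log2 fold change -1.65, SE 0.98, edgeR adjusted p = 0.335). It was -0.58 by limma-voom and -0.61 by limma on log2(FPKM + 0.1), and passed under none of the 20 alternatives. Cyp24a1, which degrades it, was at 177, 79.5 and 63.7 CPM in DXZ, against 408, 369, 76.9 and 157 CPM in saline (log2 fold change -1.24, SE 0.60, edgeR adjusted p = 0.241). The receptor gene Vdr was at 182 ± 29.0 CPM in DXZ (SD, n = 3) and 215 ± 65.7 CPM in saline (SD, n = 4), with a log2 fold change of -0.24 (adjusted p = 0.568, edgeR).

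**Figure D5:**
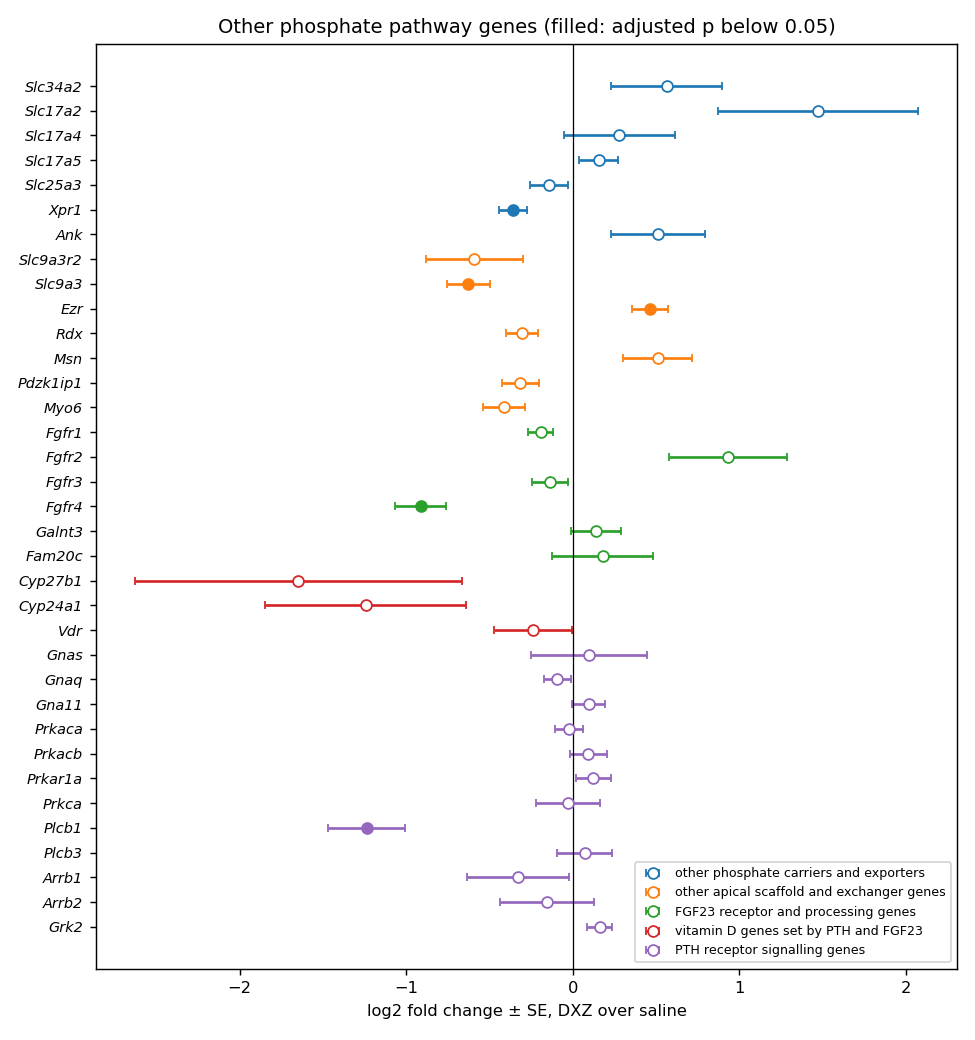
Log2 fold change of DXZ over saline with SE bars for the 35 tested genes of phosphate control outside the 10, by role, filled where the edgeR adjusted p was below 0.05. Xpr1, Slc9a3, Fgfr4 and Plcb1 are filled left of 0 and Ezr right of 0.

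Among the 10 genes, the profile nearest to that of Slc34a1 over the 7 libraries was that of Slc34a3, with a root mean square difference of 0.76 log2 units between profiles centred on their means. Kl followed at 0.94, Pdzk1 at 0.99, Slc17a3 at 1.008 and Slc17a1 at 1.18, and Slc20a2 was the farthest at 1.92. Among 12557 other tested genes that averaged 1 CPM or more, predicted and clone-named genes left out, the nearest were Acsm2 (0.312), Fam151a (0.324), Hao2 (0.370), Nat8f3 (0.379) and Ugt2b38 (0.382). Acsm2, a medium-chain acyl-CoA synthetase of the proximal tubule, was at 188 ± 102 CPM in DXZ (SD, n = 3) and 1401 ± 1065 CPM in saline (SD, n = 4). Hao2, a peroxisomal hydroxy acid oxidase, was at 41.7 ± 16.5 CPM in DXZ and 297 ± 128 CPM in saline. The profiles were centred but not scaled, so a gene is near only if its fold change is close to that of Slc34a1. The lower DXZ levels of the nearest genes follow from that choice. These likenesses describe 7 libraries that share the same 2 groups.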

How the data were processed

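Kidney RNA-seq of 7 libraries, 3 labelled DXZ and 4 saline, was analysed from 2 deposited tables. The authors deposited whole-number read counts per gene without normalization, per the file headers, and FPKM values, which matched the counts per gene length up to a single scaling value for each library. The submitters' processing notes list HISAT2, StringTie and mm9 with neither version nor role. No source used here states the counting program or its strand setting. Gene coordinates in the tables were those of GRCm38: 53585 of 54495 identifiers shared with GENCODE M21 (98.3%), and all 10 genes described, had the same start and end.

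Counts were fitted in R 4.3.3 with edgeR 4.0.16 (filterByExpr, TMM, quasi-likelihood F test, Benjamini-Hochberg adjustment over 15351 genes, threshold 0.05) after the procedure had been tested on simulated data. SEs were taken as |log2 fold change|/sqrt(F). Ratios within a library used log2 CPM with a prior count of 2. Alternatives included limma 3.58.1, DESeq2 1.42.0, other scalings and filters, a replicate block, and leaving out each library. One more was edgeR's test against a fold of 1.5, which asks for a larger change than the main test. Replicate libraries differed by 15.1 to 99.1 times the counting noise (chi-square over its degrees of freedom); no library repeated another.

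The 10 genes, the other lists and the tests were chosen with earlier results of these data known. Named by rule were all 10 genes, every other phosphate gene past the threshold, 8 fixed pathway genes (Slc34a2, Xpr1, Slc9a3, Fgfr1, Fgfr4, Cyp27b1, Cyp24a1, Vdr), and the 5 genes with profiles nearest to Slc34a1, with 4 markers (Lrp2, Slc12a3, Havcr1, Lcn2) where a value needed them. Cd68, Fxyd4, Krt8, Krt18, Krt20, Pvalb and Spp1 were named after their values were seen.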

Additional observations from a re-analysis of the deposited data

Results flagged for a closer look

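In a test for a sample far from the others of its group, run on 21 sets of 4 saline values, 1 was marked, and chance marks about 1 in 20. Slc20a1 relative to the proximal tubule markers was at -3.63 log2 units in saline 1, against -2.70 to -2.54 in the other saline libraries. Its CPM in saline 1 was 69.0, inside the saline range of 54.1 to 74.2, while the marker score was highest in saline 1, at 1.52.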

How the results depend on the processing

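Every one of the 10 genes kept its direction under all 20 alternatives. Leaving out 1 library gave 1 to 1574 changed genes over the whole table, 0 to 5 of the 10 lower, 0 to 1 higher, and 0 to 7 of the 35 other phosphate genes changed. The 853 genes, 3 lower, 1 higher and 5 other genes became 2116, 8, 2 and 8 by DESeq2, 3, 0, 0 and 0 by edgeR against a fold of 1.5 (1006 genes and 5 of the 10 at an unadjusted p below 0.05), and 145, 1, 0 and 0 by limma on log2(FPKM + 1) without a filter (4593 genes and all 10 at an unadjusted p below 0.05). The count of other phosphate genes was 3 with median-of-ratios size factors, with library totals only or with no filter. With DXZ 1 and saline 1 both removed, a setting added after the data had been seen, 1332 genes changed, 5 of the 10 were lower, 1 was higher, and the log2 fold change of Vdr turned to 0.048. The log2 difference of Slc34a1 relative to the proximal tubule markers ran from -1.71 to -0.95 with 1 library left out, and that relative to Slc34a3 from -0.18, without DXZ 3, to 0.68. The cause of these shifts was not tested. The numbers 1 to 3 are shared between groups. Deviations from the group means correlated at 0.26, -0.09 and 0.23 for numbers 1, 2 and 3, and DXZ 1 correlated best with saline 2 (0.43). With so few libraries these values do not decide whether the numbers pair the libraries. With the replicate block, on numbers 1 to 3, 115 genes changed, 2 of the 10 were lower (Slc34a3 and Kl), 0 higher, and 1 other phosphate gene changed; the log2 fold change of Cyp27b1 was then -0.24.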
